A study of Papio anubis with 8 samples.

Results

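The transcripts described here are those of the 4 MEF2 transcription factors, MEF2A, MEF2B, MEF2C and MEF2D, and of OSTN, which encodes the secreted peptide osteocrin. They were measured by RNA sequencing in 8 libraries of fetal olive baboon (Papio anubis) hippocampus at 0.9 of gestation, in a study that set out to compare fetuses of dams by maternal adiposity and leptin. Of the 5 gene names searched, 4 had a row under their own symbol among the 37053 genes of the expression table. MEF2B had none, and the 1 row that carries MEF2B as an alias, LOC100997555, described as myocyte-specific enhancer factor 2B, was used for it. No label names the maternal group, the sex or the individual fetus behind a library, or any treatment. The libraries, called AMB3 to AMB10 after their titles, were therefore not grouped, and every value below describes how single libraries differed, with no test. AMB3 alone has a title of another form than the rest, which the labels do not explain. The genes were chosen by the levels of MEF2C in these same libraries, which earlier results had shown to differ, so its differences are described and support nothing further. The lists of other genes and of cell markers used below were also chosen with earlier results known, so their counts are only described.

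MEF2 proteins bind an AT-rich DNA element as homodimers or heterodimers. In neurons, calcium entry through activity leads the phosphatase calcineurin to dephosphorylate them and class IIa histone deacetylases to leave them, which turns bound repressed genes into active ones. MEF2C is the family member best known from developing cortical excitatory neurons, and it is also made by microglia, endothelium, muscle and B cells. OSTN is known from bone and skeletal muscle of mice. In primates it gained MEF2 sites near the gene and is induced by activity in excitatory neurons of the neocortex, where the peptide was reported to restrict dendrite growth in human neurons.

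Total counts lay between 40404878 and 71648654, with a median of 58168732. Levels are counts per 1e+06 library counts (CPM), with library sizes adjusted by the TMM method of edgeR. The 95% Poisson intervals cover counting error only. Range stands here for the highest minus the lowest log2 CPM of a gene among the libraries, with a prior count of 2. It is set against 16874 tested genes, those that passed a filter equivalent to 10 counts in every library at the median library size. The median range of the tested genes was 0.77 on the log2 scale.

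MEF2C (chromosome 5, 81709497 to 81893385, minus strand) was the MEF2 gene that differed most between libraries. AMB8 had 8239 counts or 123 CPM, AMB10 10005 counts or 139.6 CPM and AMB3 13235 counts or 326 CPM. In the remaining libraries it stood at 1199 CPM in AMB5, 1331 in AMB6, 1432 in AMB4, 1637 in AMB9 and 1779 in AMB7. No library lay between 326 and 1199 CPM, and this largest gap took 48.8% of the whole range. Counting error did not blur the order, since none of the 7 pairs of neighbouring libraries had overlapping Poisson intervals. The ratio of AMB7 to AMB8 was 14.5 (95% interval 14.1 to 14.8), and that of AMB10 to AMB8 was 1.14 (1.103 to 1.17).

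The range of MEF2C was 3.85 on the log2 scale, and 167 of the tested genes (0.99%) had a larger one. It was the only 1 of the 4 tested members with a range of at least 1, which 36.1% of the tested genes had. In bulk tissue, fewer cells that make a transcript and less transcript per cell cannot be told apart, and this holds for each value given here.

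OSTN (chromosome 2, 187202229 to 187261988, plus strand) was nearly absent from some libraries and well expressed in others. There were 2 counts in AMB8, 6 in AMB10 and 48 in AMB3, which come to 0.030 CPM (95% interval 0.0036 to 0.108), 0.084 CPM (0.031 to 0.182) and 1.18 CPM (0.87 to 1.57). AMB5 had 860 counts or 19.8 CPM, AMB4 2832 counts or 44.2 CPM, AMB7 3219 counts or 45.03 CPM, AMB6 2739 counts or 50.5 CPM and AMB9 2872 counts or 72.2 CPM. The 3 lowest libraries were the same as for MEF2C, and AMB5 was the lowest of the other 5 for both genes. At the top the order differed, since AMB9 was highest for OSTN and AMB7 for MEF2C.

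For OSTN, the intervals overlapped between AMB8 and AMB10 and between AMB4 and AMB7, and not in the other 5 pairs of neighbours. The ratio of AMB9 to AMB8 was 2419, with an interval from 669 to 19985, because AMB8 had only 2 counts. The ratio of AMB5 to AMB8 was 663 (183 to 5483), and that of AMB3 to AMB8 was 39.6 (10.4 to 336). The near absence in AMB8 and AMB10 kept OSTN below the filter on low counts, so that it is not among the tested genes. Its fitted log2 range of 10.11 depends on the prior count, and it was 10.87 with a prior count of 0.5. Only 1 of the tested genes had a range above 10.11. The filter also takes out other genes that are nearly absent from a library, so this count does not rank OSTN among genes like it.

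**Figure D1:**
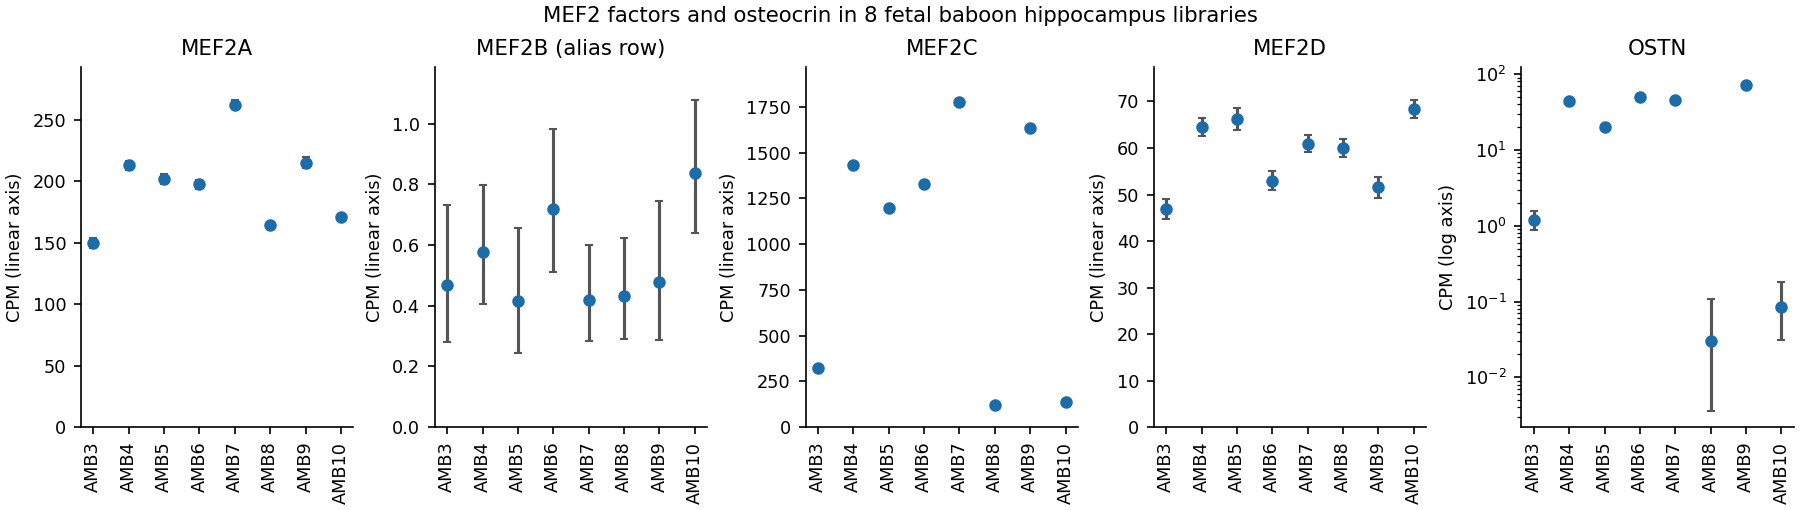
CPM of each gene by library, on a linear axis from 0 for the MEF2 genes and on a log axis for OSTN. Points are single libraries and bars are 95% Poisson intervals, smaller than the points for MEF2C. MEF2C lies at or below 326 CPM in AMB3, AMB8 and AMB10 and at or above 1199 CPM elsewhere, and OSTN at or below 1.18 CPM and at or above 19.8 CPM in the same libraries.

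OSTN differed between libraries by more than MEF2C did. Per 1000 counts of MEF2C, a ratio within a library in which the scaling cancels, there were 44.1 counts of OSTN in AMB9 (95% interval 42.5 to 45.8), 37.9 in AMB6, 30.9 in AMB4, 25.3 in AMB7 and 16.5 in AMB5. There were 3.63 in AMB3 (2.67 to 4.81), 0.600 in AMB10 (0.220 to 1.31) and 0.243 in AMB8 (0.029 to 0.877). The ratio was thus lowest in the 3 libraries in which MEF2C itself was lowest, and AMB8 and AMB10 did not differ in it beyond counting error. Among the other libraries the ratio followed the level of MEF2C only in part. AMB5 was lowest in both, and AMB9 had the second highest level of MEF2C and the highest ratio. AMB7, however, had the most MEF2C and the second lowest ratio.

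MEF2A (chromosome 7, 89257519 to 89418954, minus strand), the family member found in most tissues, had the same 3 lowest libraries over a far smaller range. It stood at 149.8 CPM in AMB3, 164 in AMB8 and 171 in AMB10, and at 197.5 in AMB6, 202 in AMB5, 213 in AMB4, 215 in AMB9 and 262 in AMB7. Its range of 0.81 on the log2 scale was exceeded by 47.1% of the tested genes, and it was 0.52 without AMB7. AMB7 was the highest library for both MEF2A and MEF2C, while the lowest was AMB3 for MEF2A and AMB8 for MEF2C. Of all tested genes, 9.87% had AMB3, AMB8 and AMB10 as their 3 lowest libraries, so many genes share this order.

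MEF2D (chromosome 1, 127176311 to 127216359, minus strand), a further broadly expressed member, did not share this order. It was lowest in AMB3, at 46.8 CPM, and highest in AMB10, at 68.4 CPM. AMB8 stood at 60.0 CPM, close to the median of 60.5 CPM, and AMB7, highest for MEF2C, at 61.0 CPM. The range was 0.55, and 69.9% of the tested genes had a larger one. Of the 7 pairs of neighbouring libraries, 5 had overlapping intervals.

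MEF2B, the member known mainly from germinal centre B cells, was read from the alias row (chromosome 20, 32879515 to 32917960, plus strand) and had few counts. There were 18 counts in AMB5, 19 in AMB3, 19 in AMB9, 29 in AMB8, 30 in AMB7, 37 in AMB4, 39 in AMB6 and 60 in AMB10. These come to between 0.414 CPM in AMB5 (95% interval 0.246 to 0.655) and 0.837 CPM in AMB10 (0.639 to 1.08). All 7 pairs of neighbouring libraries had overlapping intervals, and the range was 0.96. This row overlaps BORCS8, a gene of a lysosome positioning complex, on the same strand. BORCS8 stood at 14.7 to 18.9 CPM, and reads from the shared stretch cannot be assigned to either gene with certainty. B cell markers were near 0 throughout, with PAX5 at no more than 0.075 CPM, MS4A1 at no more than 0.098 CPM, and a summed level of the 4 markers between 0.406 and 0.483 CPM.

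**Figure D2:**
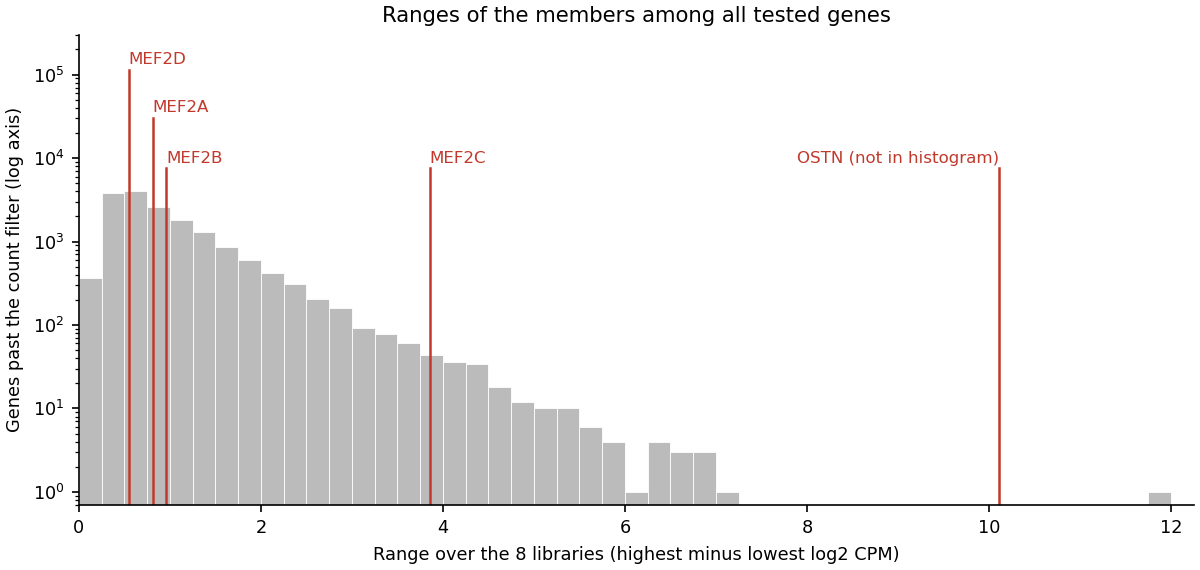
Number of tested genes (log axis) by their range over the 8 libraries in log2 CPM, in bins of 0.25, with the range of each gene of interest as a red line. MEF2D, MEF2A and MEF2B lie among the bulk of genes at 0.55, 0.81 and 0.96, MEF2C at 3.85 and OSTN, which did not pass the filter, at 10.11.

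The make-up of the MEF2 transcripts therefore differed between libraries. The 4 MEF2 rows together came to 348 CPM in AMB8, 380 CPM in AMB10 and 523 CPM in AMB3, with at least 1467 CPM (AMB5) and at most 2102 CPM (AMB7) in the others. MEF2C took 35.4% of their counts in AMB8 (95% Wilson interval 34.8% to 36.0%), 36.8% in AMB10 (36.2% to 37.4%) and 62.3% in AMB3 (61.7% to 63.0%). Elsewhere it took between 81.7% in AMB5 and 86.0% in AMB9. In AMB8 and AMB10 the largest share was that of MEF2A, with 47.2% and 44.98%, and MEF2D had 17.3% and 18.0%. These are shares of counts that are not scaled to transcript length, so they can be compared between libraries but do not rank the genes by number of molecules.

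**Figure D3:**
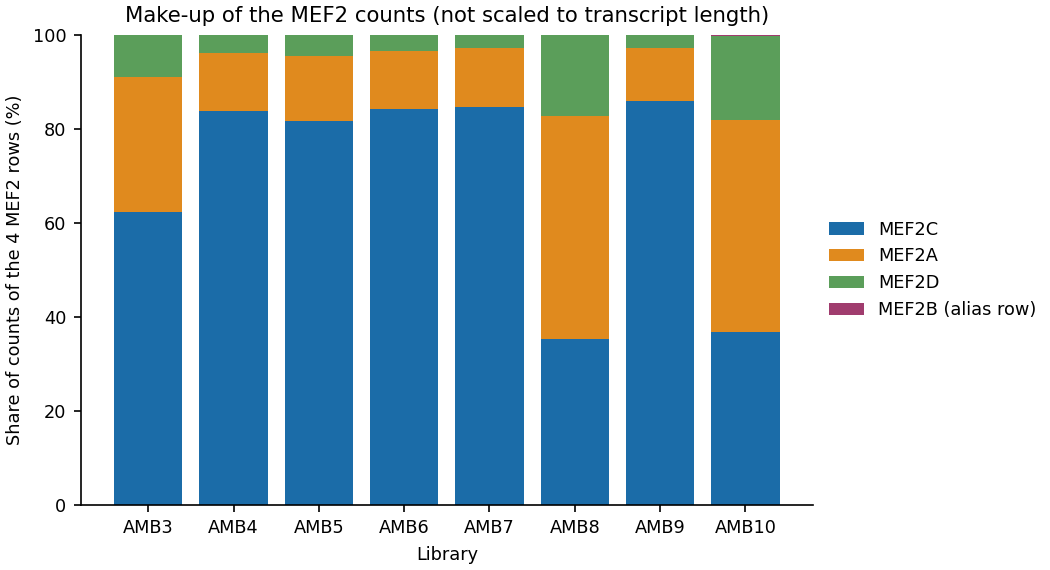
Stacked bars of the share of each MEF2 gene in the counts of the 4 MEF2 rows, one bar per library, not scaled to transcript length. MEF2C (blue) takes 62.3% in AMB3, 35.4% in AMB8 and 36.8% in AMB10, and the other libraries show 81.7% to 86.0%.

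Other annotated genes overlap the MEF2C, MEF2D and OSTN loci. LOC110743615, a noncoding RNA on the opposite strand of MEF2C, was lowest in AMB10 (0.628 CPM), AMB8 (0.702 CPM) and AMB3 (0.738 CPM) and highest in AMB7 (3.86 CPM). The libraries were strand-specific, per the labels' protocols, but whether counting used the strand is not given in the sources used here, so reads of MEF2C and of this RNA cannot be told apart with certainty. The same holds for MEF2D and LOC110741079, a noncoding RNA on its opposite strand, at 0.308 CPM in AMB7 to 1.86 CPM in AMB9. Both RNAs stood far below the genes they overlap, as MEF2C had at least 123 CPM and MEF2D at least 46.8 CPM in every library. A small nuclear RNA on the strand of MEF2D, LOC116271908, was at no more than 0.016 CPM. Opposite OSTN lie UTS2B, which encodes the peptide urotensin 2B, and the noncoding LOC108584747. UTS2B was at no more than 1.23 CPM, with its 3 highest values in AMB4 (1.23 CPM), AMB10 (1.16 CPM) and AMB3 (0.911 CPM), and LOC108584747 was at no more than 0.251 CPM. Neither reached a level near that of OSTN in AMB4, AMB5, AMB6, AMB7 or AMB9. In the libraries with little OSTN this was not so. UTS2B stood above OSTN in AMB10 (1.16 CPM, with OSTN at 0.084 CPM) and in AMB8 (0.194 CPM, with OSTN at 0.030 CPM), and close to it in AMB3 (0.911 CPM, with OSTN at 1.18 CPM). The few OSTN counts there and reads of UTS2B cannot be told apart with certainty.

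The genes named next were chosen because their profile over the 8 libraries was most like that of MEF2C. Likeness was the root mean square difference between median-centred log2 CPM profiles, over 13006 other named genes with a median count of at least 50, for which its median was 1.81. The nearest was CUX2, a homeobox factor of upper layer cortical neurons, at 0.25. AMB8 had 12.05 CPM of CUX2, AMB10 16.2 and AMB3 57.2, while the remaining libraries had 139 to 277 CPM. PDZRN3, a ubiquitin ligase of synapses, followed at 0.27, with 8.94 CPM in AMB8 and 139.9 in AMB7. RGS6, a regulator of G protein signalling, was at 0.28, HTR1D, an inhibitory serotonin receptor, at 0.31, and PCSK1, the convertase that cleaves propeptides in neurons, at 0.31. All 5 had AMB3, AMB8 and AMB10 as their 3 lowest libraries (9.87% of all tested genes), which follows from their choice by likeness to MEF2C.

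The genes NPY2R, CD74 and VWA5A came nearest to the mirror image of the MEF2C profile. NPY2R, a neuropeptide Y receptor, was at a difference of 0.33. AMB10 had 13.1 CPM of it, AMB8 10.03 and AMB3 5.17, and no other library more than 1.38 CPM. CD74, the invariant chain of class II antigen presentation, was at 0.44, and VWA5A at 0.48, with 134.8 CPM in AMB8 and 16.1 CPM in AMB7.

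**Figure D4:**
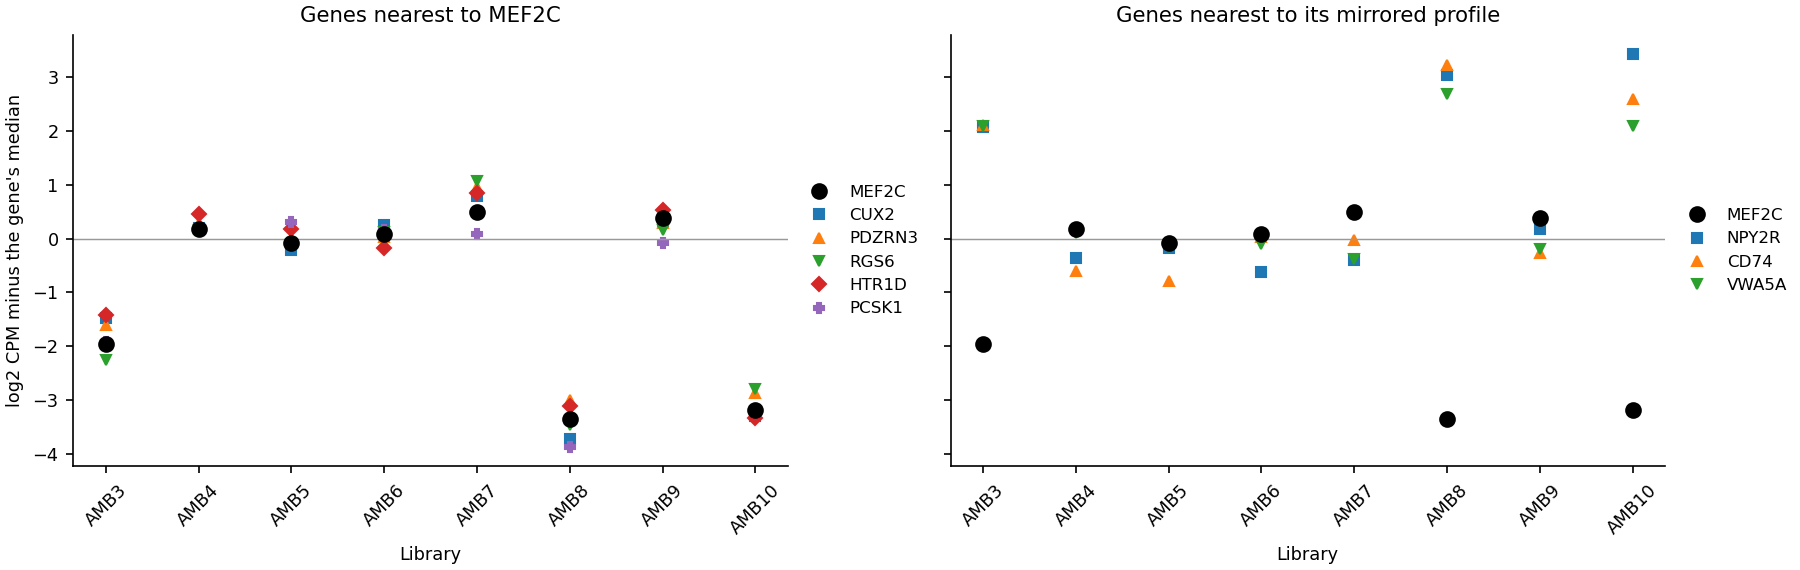
Median-centred log2 CPM (no prior count) by library for MEF2C (black) and the 5 genes nearest to it (left), and for MEF2C and the 3 genes nearest to its mirrored profile (right). On the left all genes are low in AMB3, AMB8 and AMB10, and on the right the 3 coloured genes are high there.

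The neighbours of the other MEF2 genes had ranges below 1. LRRC20 (0.06), PHF20L1 (0.06) and ZNF398 (0.06) were nearest to MEF2A, and MBD2 (0.06), SNX9 (0.06) and PI4KA (0.06) to MEF2D. PRR5L, COLCA2 and KANK1 were nearest to the alias row of MEF2B, at 0.13, 0.16 and 0.16. No gene came as close to OSTN, for which the nearest were PTGS2, the inducible cyclooxygenase, at 2.30, the transcription factor OVOL2 at 2.34 and the matrix protein ABI3BP at 2.56. The median difference from OSTN over all genes compared was 4.56, and that of MEF2C was 2.77. Of the 13006 genes compared, 12929 were nearer to MEF2C than OSTN was. The measure is not scaled to the size of a range, so a gene with a range as large as that of OSTN lies far from most others. For this reason neither value decides whether OSTN and MEF2C are alike. PTGS2 had 0.269 CPM in AMB8, 0.279 CPM in AMB10 and 0.689 CPM in AMB3, with 5.40 to 10.8 CPM in the remaining libraries.

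Enzymes and cofactors that act on MEF2 proteins were present in every library and differed less. All 20 listed regulators passed the filter. Their median range was 0.62, against 0.77 for all tested genes, and 4 of 20 had a range of at least 1 (36.1% of all tested genes). The class IIa histone deacetylases, which repress MEF2, did not move alike. HDAC9 was measured in AMB8 at 23.0 CPM, in AMB10 at 34.5 and in AMB3 at 51.7, with the rest at 58.2 to 74.8 CPM, a range of 1.70 that was 1.12 without AMB8. HDAC4 had 64.0 CPM in AMB8, 72.6 CPM in AMB10 and 80.1 CPM in AMB3, with 107.9 to 169 CPM in the remaining libraries, and its range was 1.40. HDAC5 lay between 144 and 187 CPM, and HDAC7 between 11.7 and 20.03 CPM.

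Of the 20 regulators, 6 had AMB3, AMB8 and AMB10 as their 3 lowest libraries (9.87% of all tested genes) and 2 had them as their 3 highest (9.71%). Besides HDAC4 and HDAC9, the 6 were CABIN1, a corepressor of MEF2, MAPK7, the kinase that activates MEF2C, the acetyltransferase CREBBP, and PPP3CC, a catalytic subunit of calcineurin. PPP3CC was measured in AMB10 at 19.7 CPM, in AMB8 at 22.5 and in AMB3 at 27.2, with the rest at 37.2 to 42.8 CPM. The other catalytic subunit that differed, PPP3CA, went the opposite way, with 684 CPM in AMB10, 618 in AMB8, 433 in AMB3 and 310 to 382 CPM elsewhere. PPP3R1, the regulatory subunit, was likewise highest in AMB10, at 521 CPM. PPP3CB lay between 468 and 689 CPM. The kinases CAMK4 (39.99 to 60.9 CPM), CAMK1 (100.9 to 156 CPM), MAPK14 (99.5 to 142 CPM), MAP2K5 (26.2 to 32.1 CPM) and CDK5 (77.5 to 107 CPM) had ranges of at most 0.63. The acetyltransferase EP300 (76.6 to 110.5 CPM), the Notch coactivator MAML1 (24.3 to 37.5 CPM) and the arginine methyltransferase CARM1 (57.9 to 67.9 CPM) had ranges of at most 0.63.

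Genes known as MEF2 targets in rodent neurons, muscle or endothelium did not share 1 order of libraries. All 11 passed the filter, with a median range of 1.22, and 7 reached a range of 1 (36.1% of all tested genes). AMB3, AMB8 and AMB10 were the 3 lowest libraries in 3 of the 11 (9.87% of all tested genes). NR4A1, an orphan nuclear receptor induced by activity, had 13.5 CPM in AMB10, 21.8 CPM in AMB8 and 23.2 CPM in AMB3, with 46.0 to 59.2 CPM in the remaining libraries. KLF6, a zinc finger factor, was measured in AMB8 at 31.0 CPM, in AMB10 at 34.2 and in AMB3 at 57.3, with the rest at 98.5 to 125 CPM. BDNF, the neurotrophin, went against MEF2C at both ends, with 57.9 CPM in AMB8 and 14.6 CPM in AMB7, and its range of 1.99 was 0.93 without AMB7. PCDH10, a protocadherin of synapse elimination, was low in AMB8 (62.7 CPM) and AMB10 (90.5 CPM) but not in AMB3 (172 CPM). HOMER1, a postsynaptic scaffold, lay between 128 and 154 CPM.

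Several genes known to be induced by neuronal activity, as OSTN is, were lowest in the libraries with little OSTN. Of 23 listed, 22 had a row and passed the filter, with a median range of 1.95. NR4A1, ARC and BDNF stand in this list and among the targets. AMB3, AMB8 and AMB10 were the 3 lowest libraries in 13 of 22 (9.87% of all tested genes) and the 3 highest in 2 (9.71%). As the list was chosen with earlier results of these data known, these counts are only described. INHBA, the activin A subunit, had 2.12 CPM in AMB3, 6.76 CPM in AMB8 and 8.42 CPM in AMB10, with 14.8 to 30.4 CPM in the remaining libraries, a range of 3.82 that was 2.16 without AMB3. SCG2, a granin of secretory vesicles, was measured in AMB8 at 156 CPM, in AMB10 at 162 and in AMB3 at 437, with the rest at 466 to 666 CPM. NPAS4, an early factor induced by calcium, had 0.586 CPM in AMB10, 0.761 CPM in AMB8 and 1.33 CPM in AMB3, with 1.55 to 5.66 CPM in the remaining libraries. EGR1 and EGR3, zinc finger factors of the early response, were lowest in AMB3, with 53.4 and 53.8 CPM. The neuropeptide precursor VGF did not follow, with 38.1 CPM in AMB8 but 107 CPM in AMB3. Nor did BDNF, highest in AMB8 at 57.9 CPM, or NR4A2, lowest in AMB8 at 25.8 CPM but highest in AMB3 at 124.5 CPM. The 2 genes with the opposite order, chosen here after their values were seen, were the nuclear receptor NR4A3 and the synaptic pentraxin NPTX2. NR4A3 was at 96.8 CPM in AMB8 and 25.4 CPM in AMB7, and NPTX2 at 97.2 and 31.5 CPM in these libraries.

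Osteocrin binds the natriuretic peptide clearance receptor, which NPR3 encodes, and thereby competes with natriuretic peptides. For NPR3, AMB8 had 1.55 CPM and AMB10 3.66, the 2 lowest levels, but AMB3 had 5.0 CPM, between AMB6 (4.09 CPM) and AMB7 (5.30 CPM). AMB4 was highest, with 8.86 CPM. Its range of 2.49 was 1.27 without AMB8. The guanylyl cyclase receptor NPR2 lay between 28.5 and 44.2 CPM and NPR1 between 0.951 and 1.58 CPM. Among the ligands, NPPA, atrial natriuretic peptide, was at 0.886 CPM in AMB3 and 3.75 to 9.55 CPM elsewhere, so that its range of 3.38 was 1.34 without AMB3. NPPC, C-type natriuretic peptide, was highest where OSTN was lowest, at 5.51 CPM in AMB8 and 3.71 in AMB10, but at 2.09 CPM in AMB3. NPPB did not pass the filter and was at no more than 0.308 CPM.

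The proteases and kinases of this system showed no common order. FURIN, a convertase of many propeptides, lay between 72.2 and 88.5 CPM, with its lowest level in AMB9, where OSTN was highest. CORIN, the protease that activates atrial natriuretic peptide, lay between 4.65 and 9.43 CPM. Of the kinases activated by cyclic GMP, PRKG2 was measured in AMB8 at 7.63 CPM, in AMB10 at 8.02 and in AMB3 at 9.48, with the rest at 13.6 to 29.1 CPM, a range of 1.93 that was 1.15 without AMB7. PRKG1 was highest in AMB10 (28.6 CPM) and AMB8 (26.2 CPM) and lowest in AMB5 (8.65 CPM), and its range of 1.72 was 0.97 without AMB5. Of the 10 genes listed for this system, 9 passed the filter, with a median range of 1.72. A range of at least 1 was found in 6 of these 9 (36.1% of all tested genes), and 1 of 9 had AMB3, AMB8 and AMB10 as its 3 lowest libraries (9.87%).

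Summed markers of cortical and subicular excitatory neurons were low where MEF2C and OSTN were low. The summed level of these 9 markers was 453 CPM in AMB3, 171 CPM in AMB8 and 214 CPM in AMB10, and the others lay between 630 CPM (AMB5) and 1023 CPM (AMB7). In 6 of the 9, among them CUX2, AMB3, AMB8 and AMB10 were the 3 lowest libraries (9.87% of all tested genes). This list, too, was chosen with earlier results known, so the count is only described. RORB, a nuclear receptor of cortical neurons, had 17.4 CPM in AMB8, 21.2 in AMB3 and 21.8 in AMB10, with 98.2 to 268 CPM in the rest. FOXP2, a forkhead factor, was found at 1.58 CPM in AMB8, 3.82 CPM in AMB10 and 13.1 CPM in AMB3, and the rest had 21.6 to 67.5 CPM. FEZF2, a factor of deep layer neurons, differed little, from 46.0 to 61.1 CPM. The remaining 3 were highest in AMB3, a library with little MEF2C, with NR4A2 at 124.5 CPM, LAMP5 at 39.1 CPM and RSPO2 at 31.2 CPM. Of these, RSPO2 was lowest in AMB8 (6.03 CPM) and AMB10 (8.15 CPM), NR4A2 in AMB8 (25.8 CPM) and LAMP5 in AMB9 (17.9 CPM).

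Summed markers of the hippocampal fields were highest in AMB3, AMB8 and AMB10, though not every marker followed. The 6 dentate granule cell markers summed to 328 CPM in AMB3, 592 CPM in AMB8 and 548 CPM in AMB10, with 183 to 244 CPM in the others. The 6 markers of CA field pyramidal cells summed to 234 CPM in AMB3, 549 CPM in AMB8 and 534 CPM in AMB10, with 118 to 193 CPM in the others. AMB3, AMB8 and AMB10 were the 3 highest libraries in 4 of 5 tested dentate markers and 2 of 4 tested CA markers (9.71% of all tested genes). Both lists were chosen with earlier results known, so these counts are only described. PROX1, the granule cell factor, stood at 96.6 CPM in AMB8 and at no more than 33.6 CPM outside these 3 libraries. CALB1, the tested dentate marker that did not follow, had 148 CPM in AMB10 and 120 in AMB8. In AMB3 it had 57.3 CPM, below AMB5 (93.8), AMB7 (69.1) and AMB4 (58.9). BHLHE22 was the largest part of the dentate sum in every library, from 72.8 CPM in AMB4 to 259 CPM in AMB8. FIBCD1, known from mouse CA1, stood at 399 CPM in AMB8, 366 CPM in AMB10 and 83.9 CPM in AMB3 and at no more than 76.8 CPM outside them, so it made up most of the CA sum in AMB8 and AMB10. WFS1, another CA1 marker, did not follow, with 64.0 CPM in AMB8, its second lowest level, and a range of 0.69. MAN1A1 was highest in AMB10 (31.6 CPM) and AMB8 (24.5 CPM) but had 12.8 CPM in AMB3, below 5 of the other libraries. Of the CA markers, SPINK8 had 0 counts everywhere, and 3 counts would be 0.075 CPM in the library where they weigh most. The part of region make-up in the levels of MEF2C and OSTN was not tested.

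**Figure D5:**
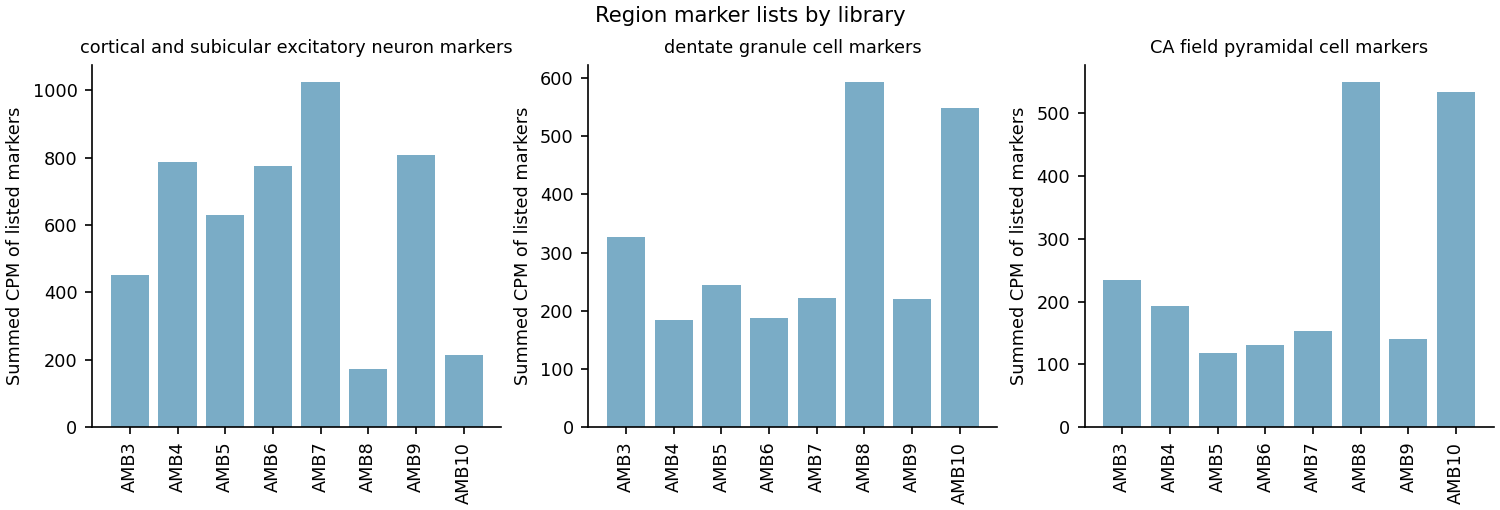
Summed CPM of the listed markers by library for cortical and subicular excitatory neurons, dentate granule cells and CA field pyramidal cells, on linear axes from 0. The first list is lowest in AMB8 and AMB10, at 171 and 214 CPM, where the other 2 lists are highest.

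In none of the marker lists of other cells described next were AMB3, AMB8 and AMB10 the 3 lowest libraries by summed level. Pan-neuronal markers summed to between 5455 CPM in AMB6 and 8029 CPM in AMB10, with 7848 CPM in AMB8. CAMK2A, the kinase of excitatory synapses, had 2356 CPM in AMB8 and 2254 CPM in AMB10 against at most 1201 CPM in the rest, while the neuronal nuclear protein gene RBFOX3 was lowest in AMB8 (123 CPM), AMB10 (133 CPM) and AMB3 (135.5 CPM). Interneuron markers summed to 324 CPM in AMB8 and 460 in AMB10, the 2 lowest values, and 562 to 730 CPM elsewhere. GAD1, SST and LHX6 were lowest in AMB8 and AMB10. For LHX6 and ADARB2, AMB3, AMB8 and AMB10 were the 3 lowest libraries (9.87% of all tested genes). The others did not follow in AMB10. There GAD2 had 105 CPM, its second highest level after AMB3 (117 CPM), PVALB its highest, at 5.44 CPM, and VIP 14.8 CPM, above its median of 14.3 CPM. Microglia markers lay between 73.5 CPM in AMB8 and 154 CPM in AMB6, with 118 CPM in AMB10, and endothelial markers between 135 CPM in AMB7 and 197 CPM in AMB4. Skeletal muscle markers summed to 1.77 CPM in AMB10, 2.05 CPM in AMB8 and 3.48 to 6.29 CPM in the rest, with ACTA1 the main part and MYOG at no more than 0.050 CPM. Bone markers summed to 28.3 to 40.1 CPM, most of it SPP1, which glia also make, while IBSP was at no more than 0.187 CPM. Smooth muscle markers ranged from 20.1 to 274 CPM, with the 2 highest values in AMB4 and AMB3. Oligodendrocyte markers lay between 647 CPM in AMB5 and 4240 CPM in AMB10, and astrocyte markers between 1656 CPM in AMB7 and 3880 CPM in AMB10. The part of these other cells in the levels of MEF2C and OSTN was not tested.

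The 3 libraries with the least MEF2C and OSTN have a particular place in the deposited table. In the authors' normalized columns, the median of AMB3, AMB8 and AMB10 was 0 in each of the 16874 tested genes (tolerance 1e-04) and for each of the 5 genes described here. In these deposited log2 values MEF2C stood at 1.22 in AMB3, -0.20 in AMB8 and 0 in AMB10, while the others had 3.11 to 3.67. OSTN stood at 3.83 in AMB3, -1.51 in AMB8 and 0 in AMB10, while the others had 7.90 to 9.75. No label gives a reason for this baseline, and no group was inferred from it.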

How the data were processed

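Total RNA of 8 fetal baboon hippocampus libraries was sequenced, from 25 ng each with a strand-specific kit, per the labels' protocols. The raw columns were deposited as estimated counts, many of them fractional, for genes of the RefSeq annotation that the header names. The normalized columns hold log2 values that the authors deposited, centred per gene on the median of AMB3, AMB8 and AMB10. The submitters' processing notes name DESeq and no version. No source used here names the aligner, the counter or the build. Coordinates are those of the deposited table, equal to the RefSeq table of Panubis1.0 for all 5 rows.

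Counts were rounded and filtered with edgeR 4.0.16 in R 4.3.3 (filterByExpr, minimum count 10, no groups), and library sizes were adjusted by TMM factors from the 16874 genes kept. No test was run, since all libraries are unassigned. The members, 4 gene lists and 13 marker lists (135 genes, 131 with a row) were chosen with earlier results of these data known. Genes were named by rule: all members, any gene of the regulator and osteocrin lists, in other lists the 4 of highest median CPM and 3 of largest range, and the nearest genes by profile. Some of these are not reported here. SPINK8, MYOG, LAMP5, NR4A2, RSPO2, PVALB, VIP and the 2 activity genes of opposite order were added after their values were seen. Scripts were checked on simulated data. Alternatives were DESeq2 1.42.0 size factors, total counts, a prior count of 0.5, no filter, the deposited log2 values and leaving out each library.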

Additional observations from a re-analysis of the deposited data

How the results depend on the processing

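The order of the libraries put AMB3, AMB8 and AMB10 lowest for MEF2A, MEF2C and OSTN with each of the 5 scalings and prior counts compared, and for MEF2B and MEF2D with none of them. The ranges of the 5 genes moved by at most 1.64% with DESeq2 size factors, 6.40% with total counts, 7.44% with a prior count of 0.5 and 11.3% with the deposited log2 values, the last 2 for OSTN, whose range was then 10.87 and 11.26. With each library left out in turn, the range lay between 0.52 and 0.82 for MEF2A, 0.76 and 0.96 for MEF2B, 3.67 and 3.87 for MEF2C, 0.41 and 0.55 for MEF2D, and 9.23 and 10.14 for OSTN. The lowest value of MEF2A came without AMB7. The tested genes with a range of at least 1 numbered 5410 to 5945 and those with a range of at least 2 numbered 1253 to 1460 in these sets. With no filter on low counts they numbered 15840 and 5890, against 6084 and 1518 with it, since more genes then enter. Counts of genes with AMB3, AMB8 and AMB10 lowest or highest under other scalings, added after seeing the data, lay between 1536 and 1790. Depth limits the values of MEF2B, and of OSTN in AMB8 and AMB10. No paired analysis was possible because no label gives a group or a pairing.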
